A study of Mus musculus with 8 samples.

Results

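The glutathione, thioredoxin, selenoprotein and heme redox genes were followed in regulatory T (Treg) cells of the mouse spleen that differed in their level of the transcription factor Bach2. The 42 members are named genes of these systems, matched by symbol to the Ensembl gene models of the deposited table. All 42 were found among its 36811 models, and all 42 were among the 11260 models with an FPKM (fragments scaled by transcript length and library size) of at least 1 in at least 4 libraries, which were tested.

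Spleen cells of C57BL/6 mice aged 12 to 13 weeks were enriched for CD4 T cells, sorted by flow cytometry and sequenced after SmartSeq2 library preparation. Both groups came from mice of the genotype Foxp3EGFP-DTR Bach2tdRFP/+, so the cells of both carried a green reporter at Foxp3 and a red reporter on 1 of the Bach2 alleles. Foxp3-GFP positive cells were split by the red reporter into 2 groups, called Bach2-RFP HI and Bach2-RFP LO in the labels. Each group had 4 libraries, 2 labelled female (F1, F2) and 2 labelled male (M1, M2). The labels do not say whether each library is a separate animal, so a p-value here is set against the spread from library to library. Part of that spread may be technical. HI and LO libraries carry the same labels, but whether those of the same label share an animal is not stated. The main fit does not pair them, and a block by label is given as an alternative.

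Bach2 itself was at 13.6, 20.7, 19.4 and 8.62 FPKM in the HI libraries F1, F2, M1 and M2 and at 0.894, 0.447, 0.753 and 0.670 FPKM in the LO libraries in the same order, a log2 difference of -3.23 (standard error 0.34). The groups were sorted on a reporter of this gene, so this difference only checks the sort. Foxp3, the factor that defines Treg cells, was at 14.2 ± 0.783 FPKM in HI and 14.7 ± 3.97 in LO (SD, n = 4 each; log2 difference 0.01, limma adjusted p 0.985), and all 10 T and Treg markers passed the filter. Of these, Il2ra was lower in LO (75.6 to 27.7 FPKM), and Ctla4 (101 to 251 FPKM) and Ikzf2 (10.2 to 22.1 FPKM) were higher by the same test. Genes listed as markers of other spleen cells were present too. In HI, 5 of the 9 tested macrophage markers, 4 of 8 B cell markers, 2 of 6 monocyte and neutrophil markers, 1 of 6 dendritic cell markers and 1 of 2 NK cell markers were higher by the same test, and in LO 2 of 6 plasma cell markers were. Of all tested models, 3.64% were higher in HI and 4.65% higher in LO. The NK cell call, Eomes, passed the filter only through its 4 HI libraries, so it could enter the test only as higher in HI. The 5 tested erythroid markers and the 1 tested CD8 marker did not pass. The monocyte and neutrophil calls were Ly6c1 (428 FPKM in HI and 45.65 in LO) and Fcgr3 (4.81 and 0.862). Lyz2, S100a8, S100a9 and Itgam of that list did not pass. Which cells these transcripts came from was not tested. Relative depth, read from the steps between low values with HI F1 as 1, ran from 0.636 (HI M1) to 5.27 (LO M2).

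Cells keep their proteins and lipids reduced through a pair of parallel systems that draw electrons from NADPH. Glutathione, made by glutamate-cysteine ligase and glutathione synthetase, is spent by glutathione peroxidases, transferases and glutaredoxins, while thioredoxins, recharged by thioredoxin reductases, serve peroxiredoxins, methionine sulfoxide reductases and ribonucleotide reductase. Several of these enzymes are selenoproteins, in which a UGA codon is read as selenocysteine. Heme, the iron-bearing cofactor that binds BACH proteins and releases them from DNA, is broken down by heme oxygenases, and the freed iron is stored in ferritin or exported.

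The glutaredoxins are shown by the codons of their active site because the paralogs moved apart in these cells. The stretches are coding sequence from the GENCODE M21 transcripts, 5′ to 3′, with the active-site codons in capitals. Glrx and Glrx2 end the site with a cysteine codon (TGC or TGT) and so can use a pair of thiols, whereas Glrx3 and Glrx5 end it with a serine codon (AGC) and have a single thiol.
Glrx, codons 18 to 31: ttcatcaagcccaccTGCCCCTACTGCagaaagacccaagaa
Glrx2, codons 65 to 78: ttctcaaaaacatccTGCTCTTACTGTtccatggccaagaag
Glrx3, first site, codons 156 to 169: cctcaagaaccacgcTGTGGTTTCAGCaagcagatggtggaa
Glrx3, second site, codons 258 to 271: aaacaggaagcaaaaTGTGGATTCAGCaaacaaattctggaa
Glrx5, codons 58 to 71: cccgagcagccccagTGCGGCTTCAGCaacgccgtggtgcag

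Of the 13 members that hold selenocysteine, only Selenom passed the test (7.69%, beside 8.29% of all tested models). It and other selenoproteins with a thioredoxin-like fold are shown. The TGA that is read as selenocysteine is in capitals, and it lies inside the reading frame in each.
Selenom, codons 41 to 55: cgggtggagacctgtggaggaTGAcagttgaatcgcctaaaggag
Selenof, codons 86 to 100: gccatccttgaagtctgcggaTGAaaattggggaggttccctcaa
Selenow, codons 6 to 20: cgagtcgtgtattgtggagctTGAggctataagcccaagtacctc
Selenot, codons 42 to 56: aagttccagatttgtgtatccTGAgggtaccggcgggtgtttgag
Selenoh, codons 31 to 45: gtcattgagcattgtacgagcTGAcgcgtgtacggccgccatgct
In Selenom, Selenow, Selenot and Selenoh a cysteine codon stands 3 codons before the TGA, and in Selenof 2 codons before it. In-frame TGA codons were found in the 13 selenoproteins (10 in Selenop, 1 in each of the others) and in 0 of the other 29 members.

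Promoters of the members that were higher in LO are shown for the letters TGACTCA, the core to which AP-1 and BACH factors bind, searched on both strands in the 250 bases before each start (RefSeq, GRCm38.p6). The core is in capitals, and reads TGAGTCA where it lies on the other strand. The table lists another start of Glrx 1 base away.
Srxn1 (chr2:152105274-152105523, + strand): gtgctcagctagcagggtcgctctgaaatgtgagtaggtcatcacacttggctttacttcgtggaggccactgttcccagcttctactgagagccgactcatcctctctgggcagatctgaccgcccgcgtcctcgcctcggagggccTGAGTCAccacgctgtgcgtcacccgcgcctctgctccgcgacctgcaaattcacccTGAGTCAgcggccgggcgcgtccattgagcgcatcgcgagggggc
Glrx (chr13:75839635-75839884, + strand): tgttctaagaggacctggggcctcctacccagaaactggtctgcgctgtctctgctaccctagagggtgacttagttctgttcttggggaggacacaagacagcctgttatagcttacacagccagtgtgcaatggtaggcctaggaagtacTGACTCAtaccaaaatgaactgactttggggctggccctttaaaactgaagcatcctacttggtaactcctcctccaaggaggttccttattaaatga
Selenom (chr11:3514434-3514683, + strand): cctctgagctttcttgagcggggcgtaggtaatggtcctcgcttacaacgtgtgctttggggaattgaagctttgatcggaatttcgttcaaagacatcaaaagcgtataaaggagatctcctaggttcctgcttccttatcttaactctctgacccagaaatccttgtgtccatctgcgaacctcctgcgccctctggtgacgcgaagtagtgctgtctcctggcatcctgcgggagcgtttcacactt
Srxn1 holds the core 2 times, Glrx 1 time and the Selenom window 0 times. Of the 32851 windows of this length in the table, 1466 (4.46%) hold it, and of the 52 windows of members 6 (11.5%) do. Counted by gene, it is in 5.16% of all genes with a window and in 5 of the 37 members with one (13.5%): Glrx, Gstp1, Prdx1, Selenok and Srxn1. Hmox1, Gclc, Gsr, Prdx6 and Msra had no window and were not searched. Of the members lower in LO, Gsto1, Glrx2, Txn2 and Fth1 were searched and did not hold the core. Gstp1, Prdx1 and Selenok did not pass the test between HI and LO. The antioxidant response core TGACNNNGC, bound by Nrf2 with small Maf proteins, occurs in 3338 of all windows (10.2%) and in 5 of the 52 windows of members (9.62%), near the background share. The genes are Gclm, Prdx1, Selenok, Sod1 and Txnrd1, of which 0 passed the test. A TGACTCA followed directly by GC matches both motifs, and a match is a description of letters, not a bound site.

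The 42 genes covered a wide range of levels, and most ranked alike in both groups. Ferritin heavy chain (Fth1) and light chain (Ftl1), glutathione peroxidase 1 (Gpx1), Selenow, Txnip, Prdx1 and Sod1 took ranks 1 to 7 by mean FPKM in HI and in LO. In HI 5 members were above 500 FPKM and 5 under 10, and in LO 4 and 6. Gclc and Gclm, the catalytic and modifier subunits of glutamate-cysteine ligase, were near the bottom of both orders, at a mean of 1.70 and 1.26 FPKM in HI and 1.25 and 1.28 in LO. Glrx moved the most in rank, from 30 in HI to 9 in LO, and Gsto1 went from 19 to 30, Selenom from 42 to 33, Selenoh from 26 to 19 and Hmox1 from 31 to 37.

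**Figure D1:**
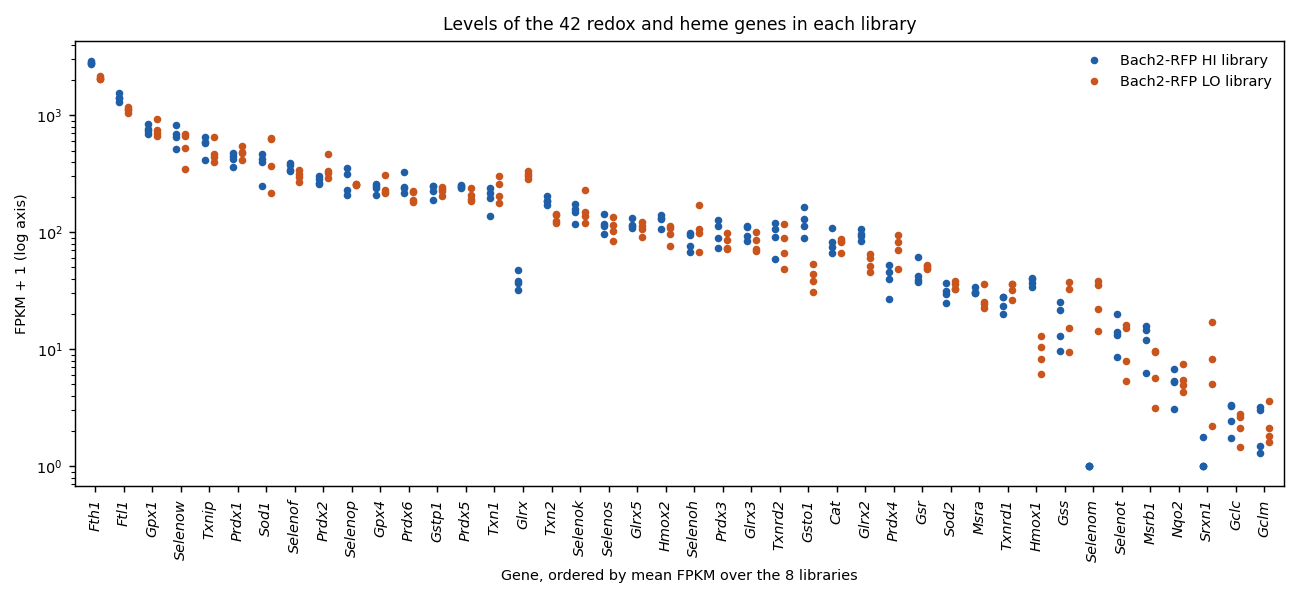
FPKM + 1 on a log axis for each of the 42 genes (x axis, ordered by mean FPKM over the 8 libraries), with 1 point per library, HI to the left and LO to the right within a gene. Fth1 leads in every library, from 2056 to 2912 FPKM, Glrx separates fully between the groups, and the 4 HI points of Selenom lie on each other at an FPKM of 0.

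Between LO and HI, 8 of the 42 members (19.0%) passed the limma test at an adjusted p of 0.05, against 8.29% of all tested models. Of these, 3 (Glrx, Selenom, Srxn1) were higher in LO, against 4.65% of all models, and 5 (Hmox1, Gsto1, Glrx2, Txn2, Fth1) were lower, against 3.64%. The members were chosen with earlier results of these data known, so these shares describe the members and do not test them as a set. Selenom and Srxn1 passed the filter only through their 4 LO libraries, so they could enter the test only as higher in LO. The members' median log2 difference was -0.09, beside -0.03 over all tested models. In 10 members the 4 HI and the 4 LO values did not overlap, against 15.1% of all models. They were the 8 called genes, Prdx5 and Ftl1. In Srxn1 the nearest values, of HI F2 and LO F2, differed only by depth scaling. The calls of Glrx, Selenom, Hmox1 and Gsto1 held under all 17 alternative settings of the analysis. Bulk values of a sorted population do not tell fewer cells of a type from less RNA per cell.

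**Figure D2:**
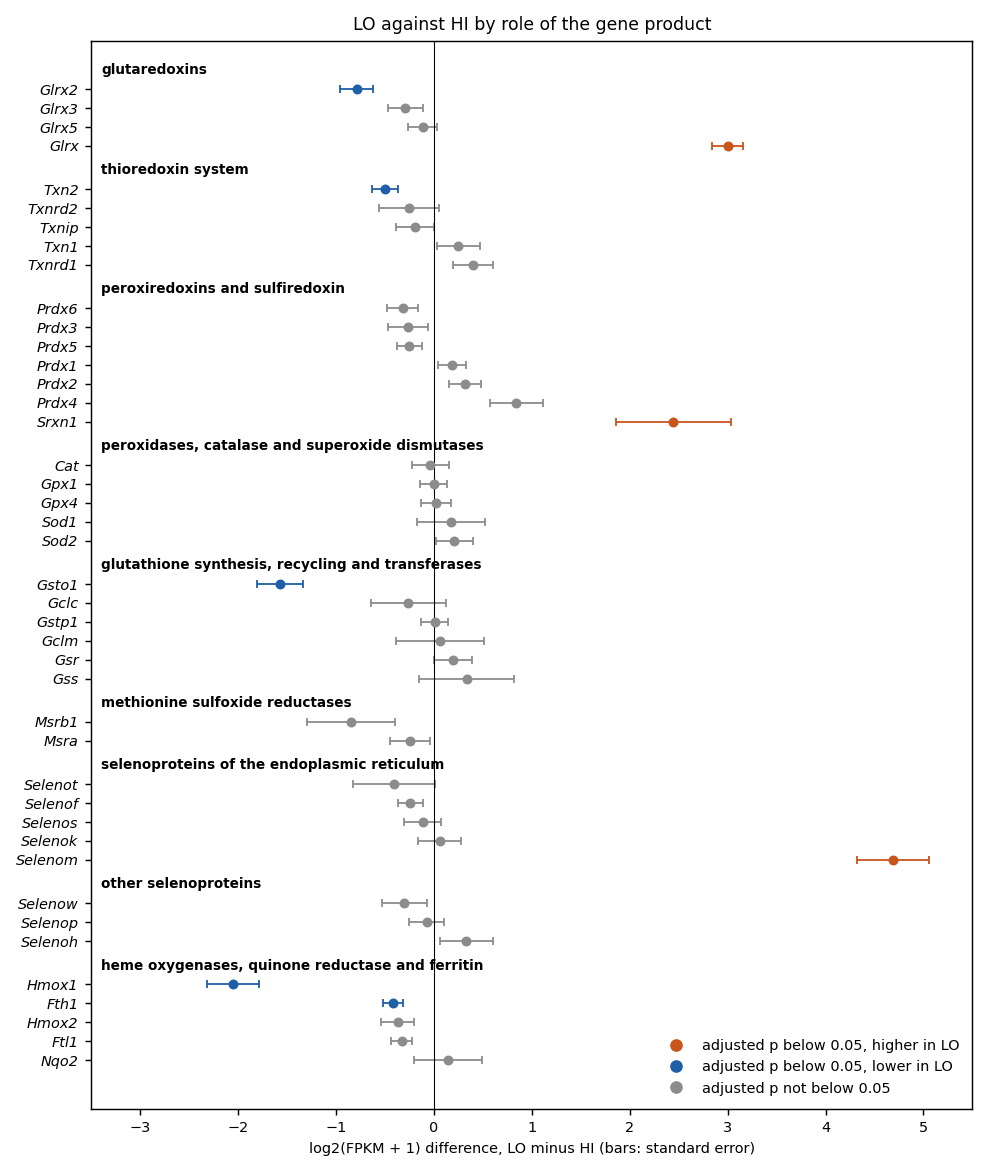
Log2(FPKM + 1) difference, LO minus HI, with its standard error for the 42 genes grouped by role. Selenom (4.69), Glrx (3.002) and Srxn1 (2.44) lie far to the right, Hmox1 (-2.05) and Gsto1 (-1.58) far to the left, and most others within 0.5 of zero.

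Among the 4 glutaredoxins, which reduce protein disulfides and glutathione adducts or carry iron-sulfur clusters, 1 rose, 1 fell and 2 did not pass. Glrx, the cytosolic dithiol enzyme, was at 46.9, 31.1, 36.1 and 37.0 FPKM in HI and at 333, 283, 312 and 300 FPKM in LO. Every LO library was far above every HI library. The means were 37.8 ± 6.62 and 307 ± 20.9 FPKM (SD, n = 4 each), 8.12-fold higher in LO, with a log2 difference of 3.002 (standard error 0.16, limma adjusted p 1.8e-05). No annotated gene overlaps Glrx, and no transcript of another gene matched its coding sequence at 95% identity over 200 bases. The coding sequence is 321 bases of a longest transcript of 4228, and the rest was not searched.

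Glrx2, a dithiol glutaredoxin of mitochondria and nucleus, moved the other way. It was at 92.1, 83.7, 95.6 and 107 FPKM in HI and at 64.5, 50.04, 59.1 and 44.6 FPKM in LO, and the groups did not overlap. Its mean fell 1.73-fold in LO (94.5 ± 9.52 and 54.6 ± 8.93 FPKM, SD, n = 4; log2 difference -0.79, limma adjusted p 0.0184). Leaving out HI M2 raised the adjusted p to 0.0539 and leaving out LO F2 to 0.0597. The monothiol members Glrx3, with log2 difference -0.29 (adjusted p 0.40), and Glrx5, with -0.11 (adjusted p 0.73), both work in iron-sulfur cluster handling and did not pass. In LO, Glrx thus had the highest level of the 4 genes, while in HI it had the lowest, below Glrx5 (116 ± 10.2), Glrx3 (99.0 ± 14.1) and Glrx2 (SD, n = 4).

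The thioredoxin system had 1 call in 5 genes, a fall. Txn2, the mitochondrial thioredoxin, was at 184, 203, 171 and 185 FPKM in HI and at 143, 118, 123 and 140 FPKM in LO. All LO values were below all HI values, but the gap was small. The mean was 1.42-fold lower in LO (log2 difference -0.50, standard error 0.13, limma adjusted p 0.0463), and 3 of the 17 alternatives kept the adjusted p under 0.05. Leaving out any 1 of the 8 libraries ended the call (adjusted p 0.0553 to 0.139). Cytosolic thioredoxin Txn1 was at 197 ± 43.2 FPKM in HI and 234 ± 56.1 in LO (adjusted p 0.58). The reductases Txnrd1 (cytosolic; log2 difference 0.40, adjusted p 0.31) and Txnrd2 (mitochondrial; -0.26, adjusted p 0.70) did not pass. Nor did Txnip, the thioredoxin inhibitor that also lowers glucose uptake, at 558 ± 102 FPKM in HI and 490 ± 114 in LO (SD, n = 4; adjusted p 0.63).

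Peroxiredoxins remove hydrogen peroxide with a reactive cysteine, and sulfiredoxin (Srxn1) repairs that cysteine after overoxidation. Srxn1 was listed at 0 in HI F1, M1 and M2 and at 0.787 FPKM in HI F2, and was at 15.9, 1.22, 4.01 and 7.31 FPKM in LO. The groups did not overlap, but LO F2 lay close to HI F2, and the LO values were spread widely. Multiplied by relative depth (1.27 in HI F2 and 0.818 in LO F2), these 2 values both came to 1 step, the smallest for this gene. Only depth scaling thus set LO F2 above HI F2. Its log2 difference was 2.44 (standard error 0.59, limma adjusted p 0.0303). The call held in 7 of the 16 alternatives that gave a value. It was lost on leaving out HI F1, HI M1, HI M2, LO F1, LO M1 or LO M2 (adjusted p 0.0575 to 0.0812), with no filter and without the shallowest and deepest libraries together (highest adjusted p 0.149).

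The 6 peroxiredoxins had 0 calls. Prdx4, the enzyme of the endoplasmic reticulum, had the widest gap, at 51.4, 39.2, 45.2 and 25.9 FPKM in HI and 94.3, 81.3, 69.4 and 47.9 in LO. The groups overlapped through LO M2, which lay below HI F1. The log2 difference was 0.84 (limma adjusted p 0.0958), and without LO M2 the adjusted p was 0.0478. Prdx5, found in mitochondria, peroxisomes and cytosol, was at 245 ± 6.07 FPKM in HI and 206 ± 22.4 in LO, without overlap (adjusted p 0.29). For the cytosolic Prdx1 and Prdx2 the log2 differences were 0.19 and 0.32, for the mitochondrial Prdx3 -0.27 and for Prdx6, which acts on phospholipid peroxides, -0.32 (adjusted p 0.51, 0.30, 0.53 and 0.30).

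The main peroxide and superoxide enzymes had 0 calls in 5 genes. Gpx1, which reduces hydrogen peroxide with glutathione, was at 759 ± 60.03 FPKM in HI and 761 ± 111 in LO (SD, n = 4; adjusted p 0.99). Gpx4, which reduces lipid peroxides in membranes and so guards against ferroptosis, was at 238 ± 22.5 and 244 ± 43.2 FPKM (adjusted p 0.96). Catalase (Cat), the peroxisomal enzyme, had means of 82.2 and 79.0 FPKM (adjusted p 0.94). Superoxide dismutases remove superoxide in the cytosol (Sod1) and mitochondria (Sod2). Sod2 had a log2 difference of 0.21 (adjusted p 0.60). Sod1 varied most within a group, from 214 to 636 FPKM among the LO libraries (adjusted p 0.83), and a near-identical gene model, Gm8566, reached 87.5 FPKM, so the authors' counting could have split its reads.

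In glutathione synthesis, recycling and transfer 1 of 6 genes fell and 0 rose. Gsto1, an omega-class transferase that also reduces glutathione adducts and dehydroascorbate, was at 113, 163, 128 and 89.2 FPKM in HI and at 37.2, 29.7, 42.6 and 53.1 FPKM in LO. The highest LO library stayed well below the lowest HI library. The mean fell 3.04-fold in LO (123 ± 31.1 to 40.6 ± 9.81 FPKM, SD, n = 4; log2 difference -1.58, standard error 0.24, limma adjusted p 0.0028). Cfap43 overlaps Gsto1 on the opposite strand, and without stated strand use their reads cannot be told apart.

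None of the synthesis genes passed. Gclc ranged from 0.453 to 2.33 FPKM and Gclm from 0.304 to 2.60 over the 8 libraries, and no difference was detectable at this depth (adjusted p 0.76 and 0.96). Glutathione synthetase (Gss) had a log2 difference of 0.33 (adjusted p 0.76). Glutathione reductase (Gsr), which returns the oxidised form, had 0.19 (adjusted p 0.63), and the pi-class transferase Gstp1 0.01 (226 ± 28.4 and 226 ± 16.9 FPKM, SD, n = 4; adjusted p 0.98). The methionine sulfoxide reductases, which repair oxidised methionine in its S form (Msra) or R form (Msrb1, a selenoprotein), had log2 differences of -0.24 and -0.85 (adjusted p 0.56 and 0.32).

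**Figure D3:**
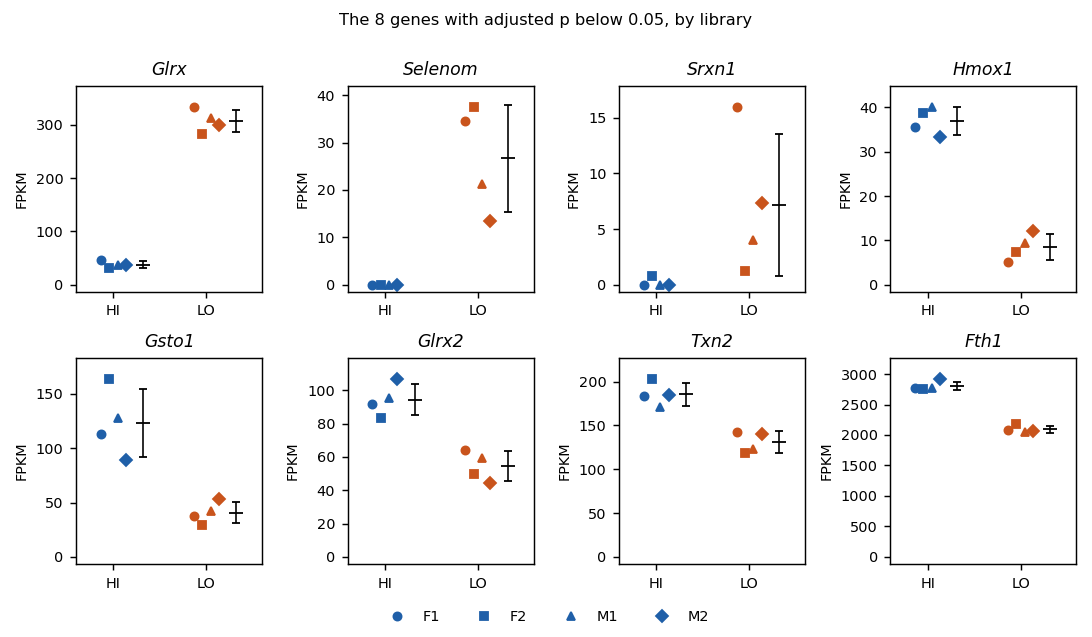
FPKM in each library of the 8 genes that passed the test, HI in blue and LO in orange, with symbols for F1, F2, M1 and M2 and bars for the mean ± SD (n = 4; left out where a library is listed at 0). The groups do not overlap in any of the 8 panels. In Srxn1 LO F2 lies near the HI points, apart from HI F2 only by depth scaling.

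Of the 13 selenocysteine proteins 1 rose, Selenom, and 0 fell (7.69% called, near the 8.29% of all tested models). Their median log2 difference was -0.08. Selenom is a small selenoprotein of the endoplasmic reticulum. It was listed at 0 in all 4 HI libraries and was at 34.6, 37.5, 21.2 and 13.4 FPKM in LO F1, F2, M1 and M2. Each LO library thus had signal where no HI library had any. Relative depth was 0.636 to 1.27 in the HI libraries and 0.818 to 1 in LO F1, F2 and M1. The log2(FPKM + 1) difference was 4.69 (standard error 0.37, limma adjusted p 0.00014), and no fold is given against a group at 0. Multiplied by relative depth, the LO values stood close to the ratio of 12, 13, 9 and 30, the smallest read numbers that give these values. Plasma cells are a rich source of transcripts for the endoplasmic reticulum, and among their markers Jchain was at 3.003, 11.0, 12.2 and 17.1 FPKM in HI and at 160, 88.1, 60.1 and 47.7 FPKM in LO. The summed level of the 7 plasma cell markers ran from 125 to 150 FPKM in HI and from 180 to 271 in LO. Of the 6 tested, 2 were higher in LO (Jchain and Prdm1, which effector Treg cells also express), and most of the difference in the sum lay in Jchain. The means of Mzb1 (9.66 FPKM in HI and 4.96 in LO) and Xbp1 (112 and 104) were not higher in LO, and neither passed. Sdc1 (1.20 FPKM in HI and 3.83 in LO) and Derl3 (0.847 and 1.52) had higher means in LO, and neither passed. Sdc1 was at or below 7.82 FPKM in every library. The part of plasma cells in the Selenom result was not tested.

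The other selenoproteins of the endoplasmic reticulum did not pass: Selenof, a partner of glycoprotein folding control, had a log2 difference of -0.24 (adjusted p 0.32). Selenok and Selenos, of the complex that removes misfolded proteins, had 0.06 and -0.11 (adjusted p 0.91 and 0.80), and Selenot -0.41 (adjusted p 0.65). Selenow, which was at 673 ± 129 FPKM in HI and 558 ± 159 in LO, had -0.30 (SD, n = 4; adjusted p 0.53), and the nucleolar Selenoh 0.33 (adjusted p 0.55). Selenop, a secreted carrier of selenium, was at 312, 208, 356 and 230 FPKM in HI and 254, 259, 258 and 254 FPKM in LO. Its LO values all lay inside the HI range (adjusted p 0.86).

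Heme breakdown and iron storage held 2 falls and 0 rises in 5 genes. Hmox1, the inducible heme oxygenase and a classical target of BACH repression, was at 35.7, 38.8, 40.0 and 33.2 FPKM in HI and at 5.19, 7.27, 9.41 and 12.1 FPKM in LO. No LO library came near the HI range. The mean fell 4.35-fold in LO (36.9 ± 3.09 to 8.49 ± 2.95 FPKM, SD, n = 4; log2 difference -2.05, standard error 0.26, limma adjusted p 0.00137). The constitutive Hmox2 was at 126 ± 13.8 and 97.7 ± 16.7 FPKM (adjusted p 0.25), and the quinone reductase Nqo2 had a log2 difference of 0.15 (adjusted p 0.86).

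Ferritin heavy chain, which oxidises iron for storage, was the most abundant member. Fth1 was at 2776, 2758, 2772 and 2912 FPKM in HI and at 2088, 2176, 2056 and 2062 FPKM in LO. The groups were narrow and well separated. The summed FPKM of all models was also lower in every LO library (1.49e+06 to 1.76e+06) than in every HI library (1.84e+06 to 2.14e+06). The part of that shift in the ferritin differences was not tested. The mean was 1.34-fold lower in LO (log2 difference -0.42, standard error 0.10, limma adjusted p 0.0326), but quantile normalization turned the difference to 0.099 (adjusted p 0.71). The call held in 4 of 17 alternatives and was lost on leaving out any library but LO M2 (adjusted p 0.06002 to 0.0906). Ftl1, the light chain, was at 1398, 1537, 1393 and 1301 FPKM in HI and 1099, 1054, 1139 and 1178 in LO, also without overlap. Its log2 difference of -0.33 (adjusted p 0.11) did not pass, and was 0.042 after quantile normalization. The ratio of Fth1 to Ftl1 lay between 1.80 and 2.24 in HI and between 1.75 and 2.07 in LO, ranges that overlap.

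Red pulp macrophages of the spleen are known for Hmox1, Blvrb, Slc40a1 and ferritin, and part of their markers moved with Hmox1. C1qc was at 21.4, 23.4, 18.7 and 30.6 FPKM in HI and 4.37, 4.37, 7.15 and 3.84 FPKM in LO, and Vcam1 at 11.2, 16.7, 10.6 and 22.8 FPKM in HI and 0.912, 2.74, 3.73 and 2.90 in LO. The 13 macrophage markers summed to 164 to 247 FPKM in HI and 70.7 to 127 in LO. Of the 9 tested, 5 were lower in LO (C1qa, C1qb, C1qc, Vcam1 and Csf1r). Siglec1 was listed at 0 in all 8 libraries, and Spic, which defines red pulp macrophages, was at 8.23, 8.38, 0 and 8.84 FPKM in HI and 0, 1.31, 5.36 and 0.509 in LO, without passing (adjusted p 0.41). Axl had the opposite order of means, 33.1 FPKM in HI and 61.0 in LO, and did not pass (adjusted p 0.23). B cell markers, which summed to 158 to 268 FPKM in HI and 78.8 to 105 in LO, moved the same way. The part of these cells in the falls of Hmox1, Gsto1, Glrx2, Txn2 and Fth1 was not tested.

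**Figure D4:**
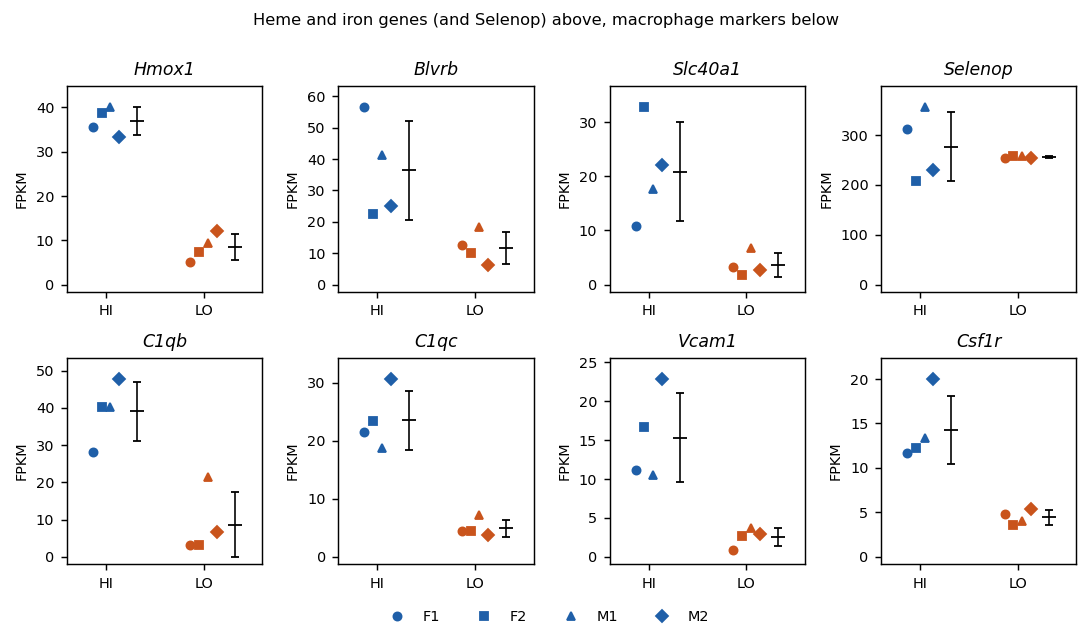
FPKM in each library of Hmox1, Blvrb, Slc40a1 and Selenop (upper panels) and the macrophage markers C1qb, C1qc, Vcam1 and Csf1r (lower panels), with mean ± SD (n = 4). Of the 8 genes, the 7 other than Selenop were called lower in LO and have every HI library above every LO library. The groups do not overlap in 15.1% of all tested models. The markers shown are among the 5 called lower of the 9 tested. Spic, which overlapped, and Axl, with a higher mean in LO, are not shown.

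Other genes of the same systems, in 6 lists of 121 genes, had 4 rises and 9 falls among the 98 tested, with a median log2 difference of -0.12. The rises were 4.08% of those tested, beside 4.65% of all models, and the falls 9.18%, beside 3.64%. These lists too were chosen with earlier results of these data known, so the shares describe them and do not test them. The list of Nrf2 (Nfe2l2), its inhibitor Keap1, Bach1 and small Maf genes had 0 of 8 by limma, and 1 at an unadjusted p under 0.05. Nfe2l2 itself was at 29.8 ± 9.23 FPKM in HI and 23.2 ± 2.64 in LO (SD, n = 4; adjusted p 0.55), a gene named after its values were seen. Of the genes an active Nrf2 is known to induce, Nqo1 was too low to be tested. All 4 HI libraries listed it at 0, and it was at 2.16, 1.08, 0.882 and 1.17 FPKM in LO. Multiplied by relative depth, these LO values stood close to the ratio of 2, 1, 1 and 7, with LO M2 at a relative depth of 5.27. At such low read numbers they do not show a difference from HI. The cystine importer gene Slc7a11 was listed at 0 in all 8. Both were also named after their values were seen.

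Among 18 other tested glutathione enzymes 1 rose and 4 fell. Gsta4, an alpha-class transferase for lipid aldehydes, was at 63.1, 65.7, 39.7 and 42.4 FPKM in HI and 3.86, 5.79, 3.16 and 1.497 FPKM in LO. Its groups were far apart, with a 14.8-fold lower mean in LO (log2 difference -3.61, standard error 0.34, limma adjusted p 0.00035), and the call held under all 17 alternatives. The microsomal transferase gene Mgst3 was at 17.3, 9.42, 8.37 and 13.0 FPKM in HI and 0, 3.26, 2.66 and 0.505 in LO (limma adjusted p 0.0127), a call lost with a pseudocount of 0.1 (adjusted p 0.0606) and without the shallowest and deepest libraries together (0.0602). Mgst2 fell from 351 ± 44.4 to 224 ± 41.3 FPKM and Gstk1, of mitochondria and peroxisomes, from 16.5 ± 5.92 to 5.82 ± 2.82, while the theta-class Gstt2 rose from 18.1 ± 6.39 to 38.4 ± 6.84 (SD, n = 4; limma adjusted p 0.0386, 0.0449 and 0.0429). The last 3 calls held in 7 of 17 alternatives each. Leaving out any library but HI M2 and LO F1 ended the Mgst2 call, any but HI F2 and LO F2 the Gstk1 call and any but HI F1 the Gstt2 call (adjusted p 0.0662 to 0.115 over the 3 genes).

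In the other thioredoxin-family list 2 of 22 tested genes rose and 0 fell. Txndc5, a disulfide isomerase of the endoplasmic reticulum abundant in plasma cells, rose from 40.9 ± 7.78 to 74.4 ± 16.5 FPKM (SD, n = 4; limma adjusted p 0.036). Msrb3, a methionine sulfoxide reductase, had 0 FPKM listed in the HI group throughout and was at 4.19, 2.80, 1.31 and 1.25 FPKM in LO (limma adjusted p 0.0243). Msrb3 passed the filter only through the LO libraries, so it could enter the test only as higher in LO. The list of selenocysteine machinery and other selenoproteins had 0 rises and 1 fall in 13. That fall was Txnrd3, a reductase best known from testis, at 5.73, 3.202, 5.72 and 6.09 FPKM in HI and 0, 0, 0.453 and 1.98 in LO (limma adjusted p 0.0153, and 0.0515 with a pseudocount of 0.1). Txnrd3 met the filter through its 4 HI libraries, and only 1 LO library reached 1 FPKM. Of 11 NADPH supply genes 1 fell, the mitochondrial malic enzyme Me2 (78.1 ± 16.4 to 44.8 ± 4.58 FPKM, SD, n = 4; limma adjusted p 0.0298). Leaving out 1 library ended the call of Txndc5 for all but HI M1 and LO F1, of Msrb3 for all but HI M1, LO M1 and LO M2, and of Me2 for all but HI F1 and LO F2 (adjusted p 0.0528 to 0.101 over the 3 genes).

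The heme and iron list had 1 rise and 3 falls in 26 tested genes. Alad, an early enzyme of heme synthesis, rose 1.91-fold from 64.6 ± 9.05 to 123 ± 22.1 FPKM (SD, n = 4; log2 difference 0.92, limma adjusted p 0.0113) and held under all 17 alternatives. The iron exporter ferroportin (Slc40a1) was at 10.9, 32.7, 17.7 and 22.0 FPKM in HI and 3.21, 1.84, 6.76 and 2.71 in LO. It was thus lower in every LO library, 5.74-fold by the means (log2 difference -2.24, limma adjusted p 0.0084). That call was lost without the shallowest and deepest libraries together (limma adjusted p 0.0558). Blvrb, a biliverdin reductase downstream of heme oxygenase, was at 56.5, 22.6, 41.4 and 25.1 FPKM in HI and 12.6, 10.04, 18.4 and 6.23 in LO (3.09-fold lower, limma adjusted p 0.0332). Pcbp2, an iron chaperone and RNA-binding protein, fell from 68.2 ± 11.0 to 42.2 ± 3.10 FPKM (SD, n = 4; limma adjusted p 0.0399), a call kept in 4 of 17 alternatives. Leaving out any library but HI M2 ended the Pcbp2 call, and leaving out HI F1, HI M1, LO F1, LO F2 or LO M2 the Blvrb call (adjusted p 0.0578 to 0.114 over both). The Blvrb call was also lost with no filter, with the sex covariate and without the shallowest and deepest libraries together (limma adjusted p 0.0639, 0.0517 and 0.153). The macrophage markers given beside Hmox1 moved with Slc40a1 and Blvrb too, and their part was not tested.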

How the data were processed

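RNA was sequenced from 8 libraries of sorted spleen Treg cells, 4 Bach2-RFP HI and 4 Bach2-RFP LO, grouped by title. The authors deposited FPKM values from Cuffnorm, per the name of the table. The submitters' processing notes name as tools HISAT2, cutadapt and FastQC, and as builds mm9 and NCBIM37. The annotation, the scaling between libraries and strand use were not given in the sources used here. The series' design text describes another experiment.

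Symbols, transcript lengths and coding stretches came from GENCODE M21 (GRCm38, another build than the authors'), with 31840 of 36811 IDs matched, and promoters from RefSeq. The authors' deposited FPKM values were tested as log2(FPKM + 1), on which scale changes of low genes are understated, with limma 3.58.1 in R 4.3.3 (eBayes with trend) over the 11260 models at 1 FPKM or more in 4 libraries. P-values were adjusted by Benjamini-Hochberg, with a threshold of 0.05. Folds are ratios of mean FPKM. Relative depth came from models below 2 FPKM. Between 56.4% and 86.0% of such ratios were within 1% of whole-number ratios.

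The members and gene lists were chosen with earlier results of these data known. All members are accounted for. Of other lists, called genes are named, at most 6 each by smallest p. The 17 alternatives changed the pseudocount, filter, scaling, variance trend, sex covariate, replicate block or the libraries used.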

Additional observations from a re-analysis of the deposited data

Results flagged for a closer look

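In groups of 4 libraries, 1 was singled out where its distance to the nearest other as a share of the group's range passed Dixon's 95% critical value. This happened in 6 of 114 groups (5.3%), and chance gives about 1 in 20. In HI, Srxn1 stood out in F2 at 0.787 FPKM where the other 3 were listed at 0, Msra in F1 at 33.1 FPKM and Fth1 in M2 at 2912 FPKM. In HI the lowest library of Txnrd3 stood out too, F2 at 3.202 FPKM. In LO, F2 stood out for Gpx4 at 308 FPKM and for Gstk1 at 10.003 FPKM. Of the 57 genes checked, 0 had both LO libraries above both HI libraries in one sex and both below them in the other.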

How the results depend on the processing

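Of 710 values of the 42 members under the 17 alternatives, 633 kept direction and side of the threshold, 39 lost the call, 2 gained it and 36 changed sign. Among the other named redox genes 136 of 219 values kept the call, 83 lost it and 0 changed sign. The number of members called higher in LO ranged from 2 to 3. The number called lower was 2 with the replicate block and 3 with quantile normalization, upper quartile scaling, eBayes without trend, the sex covariate or without the shallowest and deepest libraries together. Leaving out 1 library gave 2 to 4. Of all models 642 to 975 were called, and 771 with the block. Same-label libraries of HI and LO had deviations correlated at 0.05, 0.01, 0.07 and 0.11 (F1, F2, M1, M2), and 6 of 8 libraries correlated best with their own label. Only M2 was above 0.1, and whether same-label libraries share an animal is not stated, so the block stayed an alternative. With the block, Prdx4 passed (adjusted p 0.0321), while Glrx2 (0.0504), Txn2 (0.091), Fth1 (0.0622) and Srxn1 (0.0694) did not. Sign changes (log2) after quantile normalization were Gpx1 0.14, Gclm -0.30, Fth1 0.099 and Ftl1 0.042, and after upper quartile scaling Gpx1 0.027. Without the shallowest and deepest libraries they were Glrx5 0.026, Gpx1 0.078, Gclm -0.018, Gstp1 -0.070, Nqo2 -0.030, Selenow 0.020 and Selenop 0.062. On leaving out 1 library the values that changed sign ranged as follows: Gpx1 -0.099 to 0.053, Gpx4 -0.094 to 0.073, Sod1 -0.026 to 0.50, Cat -0.14 to 0.096, Gclm -0.18 to 0.27, Gstp1 -0.078 to 0.057, Nqo2 -0.076 to 0.30, Selenok -0.13 to 0.18, Selenos -0.22 to 0.0064, Selenop -0.20 to 0.057 and Foxp3 -0.13 to 0.15. The cause was not tested. Values near 1 FPKM are limited by depth, and each call rests on 4 libraries a group.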
